A study of Mus musculus with 18 samples.

Results

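Neuregulins and the ErbB receptors form a signalling family of 10 genes here, 6 ligand genes (Nrg1, Nrg2, Nrg3, Nrg4, Ereg and Areg) and 4 receptor genes (Egfr, Erbb2, Erbb3 and Erbb4), out of 21896 RefSeq protein-coding genes. The members were listed by name, and every tabulated region that touched a gene body or lay within 5 kb of it was taken. This gave 13 of 13409 H3K36me2 islands, 7 of 4285 listed H3K27me3 windows and 0 of 730 listed H3K36me2 windows. Only windows past a cut-off are listed, FDR under 0.05 for H3K27me3 and nominal p under 0.05 for H3K36me2, so other windows cannot appear. The marks were profiled by CUT&RUN, in which an antibody steers a nuclease to chromatin and the released DNA is sequenced. Epidermal cell suspensions came from mice carrying LSL-H3K36M, a Cre-dependent construct for histone H3 with methionine in place of lysine 36. Mice positive for Krt14-Cre (mutant) expressed it in keratin-14 expressing tissues, and mice negative for Krt14-Cre (WT) carried the same construct without Cre. Each mark has 3 mutant and 3 WT libraries, 1 per animal, and age, sex and strain are not given in the labels. The tables hold pools or means per genotype, so the spread between animals cannot be shown beside a value. In such a mixed suspension, fewer cells with a mark and less of it per cell cannot be told apart. An H3K36me2 island was tabulated at 5 of 7 epidermal marker genes (Krt5, Krt14, Trp63, Krt15 and Itga6, not Krt1 or Krt10) and at 2 of 8 genes that mark other skin cells (Pecam1 and Mitf), against 20.6% of all protein-coding genes, which describes chromatin and not expression. The marker genes differed between genotypes. Of the epidermal markers 4 had a higher island (Krt5, Krt14, Trp63 and Itga6), 2 a lower one (Trp63 and Krt15) and 2 a rising H3K27me3 window (Trp63 and Itga6). Of the markers of other skin cells 2 had a lower island (Pecam1 and Mitf), 0 a higher one, 1 a rising window (Pecam1) and 1 a falling window (Vim). Over all protein-coding genes the shares were 12.2% lower, 7.19% higher, 7.43% falling and 2.64% rising. Only the mutants carry Krt14-Cre. Whether reads from any Krt14 sequence in it add to the Krt14 island (57 mutant and 16 WT reads) was not tested. The part of these marker differences in the values below was not tested.

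ErbB receptors are receptor tyrosine kinases that pair up when a ligand with an EGF-like domain binds outside the cell. Egfr binds epiregulin and amphiregulin, the products of Ereg and Areg, while Erbb3 and Erbb4 bind neuregulins, and Erbb2 has no ligand of its own and acts as the shared partner. In skin, Egfr signalling keeps basal keratinocytes dividing and delays their differentiation. H3K36me2 is a broad mark of active and intergenic chromatin that counters PRC2, the Polycomb enzyme that deposits the repressive mark H3K27me3. H3K36M blocks the enzymes that methylate lysine 36.

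Among the 7 H3K27me3 windows, the one at Nrg2 lay 0.747 kb from an end of that gene, whose strand was not known here. A further 3 lay within about 3 kb of a known transcription start: one inside Erbb4 and one upstream of each of Areg and Nrg4. These 3 did not reach the promoter itself. The 250 bases before those starts are shown because they are the annotated promoters of these genes. They come from the RefSeq promoter table for GRCm38.p6, on the gene's own strand. The starts used for Erbb4 (69108059) and Nrg4 (55283625) lie inside the gene bodies, which end at 69108576 and 55283654. Capitals mark every CG dinucleotide, the base step that recruits Polycomb complexes where it is dense and unmethylated.
Areg, chr5:91139349-91139598, plus strand: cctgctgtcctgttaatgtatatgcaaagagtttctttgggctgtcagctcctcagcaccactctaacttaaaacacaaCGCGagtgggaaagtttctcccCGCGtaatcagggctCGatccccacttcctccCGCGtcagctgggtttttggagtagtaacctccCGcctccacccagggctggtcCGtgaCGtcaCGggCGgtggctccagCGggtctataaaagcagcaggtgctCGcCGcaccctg
Nrg4, chr9:55283626-55283875, minus strand: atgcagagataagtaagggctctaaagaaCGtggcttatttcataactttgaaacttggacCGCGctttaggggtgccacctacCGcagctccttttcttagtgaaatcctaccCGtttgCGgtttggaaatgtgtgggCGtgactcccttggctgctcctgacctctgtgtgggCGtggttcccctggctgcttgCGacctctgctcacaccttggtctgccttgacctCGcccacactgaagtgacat
Erbb4, chr1:69108060-69108309, minus strand: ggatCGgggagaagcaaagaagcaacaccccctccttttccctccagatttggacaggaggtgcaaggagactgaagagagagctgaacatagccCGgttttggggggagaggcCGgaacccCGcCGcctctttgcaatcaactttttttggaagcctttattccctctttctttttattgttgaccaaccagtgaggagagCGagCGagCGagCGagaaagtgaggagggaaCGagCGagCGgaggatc

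The Areg promoter held 15 CG dinucleotides, the Erbb4 promoter 12 and the Nrg4 promoter 10, against a median of 6 over 32851 mouse promoters of this length. Areg was alone among the 6 family promoters in the table (Nrg3, Nrg4, Egfr, Erbb2, Erbb4 and Areg) in holding TATAAA, which started at -31 from the transcription start and is found in 12.4% of all promoters on either strand. It also held TGACGTCA, the cAMP response element sequence, at -61, present in 1.55% of promoters. GGGCGG, the core of an Sp1 site, was found in Areg and, on the other strand, in Egfr, and in 32.7% of promoters. TGANTCA, an AP-1 site, was in none of the 6 and in 6.75% of promoters. Nrg3 had the most CG dinucleotides of the 6, with 27, at least as many as 92.4% of promoters. These matches describe letters only.

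Among the receptors, only Egfr had H3K36me2 islands in its body or flanks, and they did not move together. Egfr, the receptor of EGF, Ereg and Areg (GRCm38 chromosome 11, 16752203 to 16913907, plus strand), had 11 islands, of which 10 overlapped the gene body and covered 44.4% of it. The first 10.6 kb of the gene and its last 58.7 kb held none. More islands were found at 42 protein-coding genes. Summed over the 10 islands in the body, there were 2930 mutant and 2385 WT reads. Scaled to the 59539924 mutant and 47361190 WT reads of the pools, this gave a level of 0.685 RPM (reads scaled to sequencing depth) per kb in the mutant and 0.701 in WT. The mutant to WT ratio was 0.977, with an exact binomial 95% interval from 0.925 to 1.03. Intervals on read ratios here cover counting error in the pools and leave out differences between animals. At this depth no difference in the depth-scaled sum of the Egfr body was detectable. RPM is relative to all reads of a pool, so a loss shared by all regions would not show in these ratios.

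Within that sum, the authors' SICER2 test at FDR under 0.05 called 3 islands at Egfr lower, 3 higher and 5 in neither direction. Over all islands, 58.1% were lower and 17.3% higher, and over the 7019 islands inside protein-coding bodies 44.9% and 25.7%. At least 3 lower and 3 higher islands were found at 26 protein-coding genes. The first higher island began 10.6 kb into the gene and had 127 mutant and 73 WT reads, a ratio of 1.38 (1.03 to 1.87) and FDR 0.00199 per the authors' deposited table. The other higher islands were centred 70.5 kb and 91.6 kb from the start. Their reads were 178 against 110, a ratio of 1.29 (1.01 to 1.65), and 217 against 132, a ratio of 1.31 (1.05 to 1.64). All 3 higher islands were short, from 2600 to 5200 bp, and thin in WT, with a summed level of 0.536 RPM per kb.

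The 3 lower islands at Egfr were broader, from 7400 to 10200 bp, and denser in WT, with 0.792 RPM per kb. They were centred 18.1, 28.1 and 57.2 kb from the start. Their reads were 324 against 297 (ratio 0.868), 405 against 374 (0.861) and 333 against 304 (0.871), and the intervals of the ratios at 18.1 and 57.2 kb included 1. FDRs in the authors' deposited table were 0.0141, 0.00438 and 0.0156. With an exact binomial test over all islands, in which both pools carry counting error, none of the 3 was called (adjusted p = 0.120, 0.0650 and 0.125), and of the higher islands those at 11.9 and 91.6 kb were (adjusted p = 0.0475 and 0.0293), but not the one at 70.5 kb (0.0625). Along the 11 islands the mutant level ranged from 0.583 to 0.820 RPM per kb, against 0.505 to 0.847 in WT. The ends of the WT range are an island called higher (0.505) and one called lower (0.847). The WT pool is also shallower, and whether the ranges differ was not tested. Across these 11 islands the ratio ranked against the WT level with a Spearman's rho of -0.85, and against island width with -0.71. The same correlations over all 13409 islands were -0.52 and -0.24, and ratio and WT level share the WT reads. Egfros and Gm39584, long noncoding RNA genes inside Egfr, overlap 5 of these islands, and the DNA reads cannot be assigned to one of the overlapping genes.

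Beyond 5 kb, the region upstream of Egfr differed from its body. The island 3.4 kb before the gene had 264 mutant and 237 WT reads, a ratio of 0.886. It was not called (FDR 0.0528 in the authors' deposited table). All 8 islands that lay between 5 and 250 kb before the gene were called lower, with ratios from 0.514 to 0.802. Together they held a level of 0.509 RPM per kb in the mutant and 0.752 in WT over 43.4 kb, a ratio of 0.678 (0.629 to 0.730). That interval does not overlap the one of the Egfr body, but neither includes differences between animals. The same contrast is present in the whole table, where 72.6% of the 6390 islands outside protein-coding bodies were lower and 44.9% of the 7019 islands inside them, with median ratios of 0.737 and 0.920.

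Of 18072 tested H3K27me3 windows 8.54% rose, and windows without a call are not listed. The same upstream stretch held 4 listed windows, all rising. The nearest, 37.4 kb before Egfr, went from 3.02 normalised reads in WT to 27.7 in the mutant (log2 fold 2.29 at FDR 1.84e-06, per the authors' deposited table). The other windows had WT means of 2.67, 5.20 and 5.55 and mutant means of 16.4, 18.2 and 15.5. Gm39583, a long noncoding RNA gene, overlaps the nearest of them. Inside Egfr and for 250 kb past its end no H3K27me3 window was listed, and past its end no island.

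**Figure D1:**
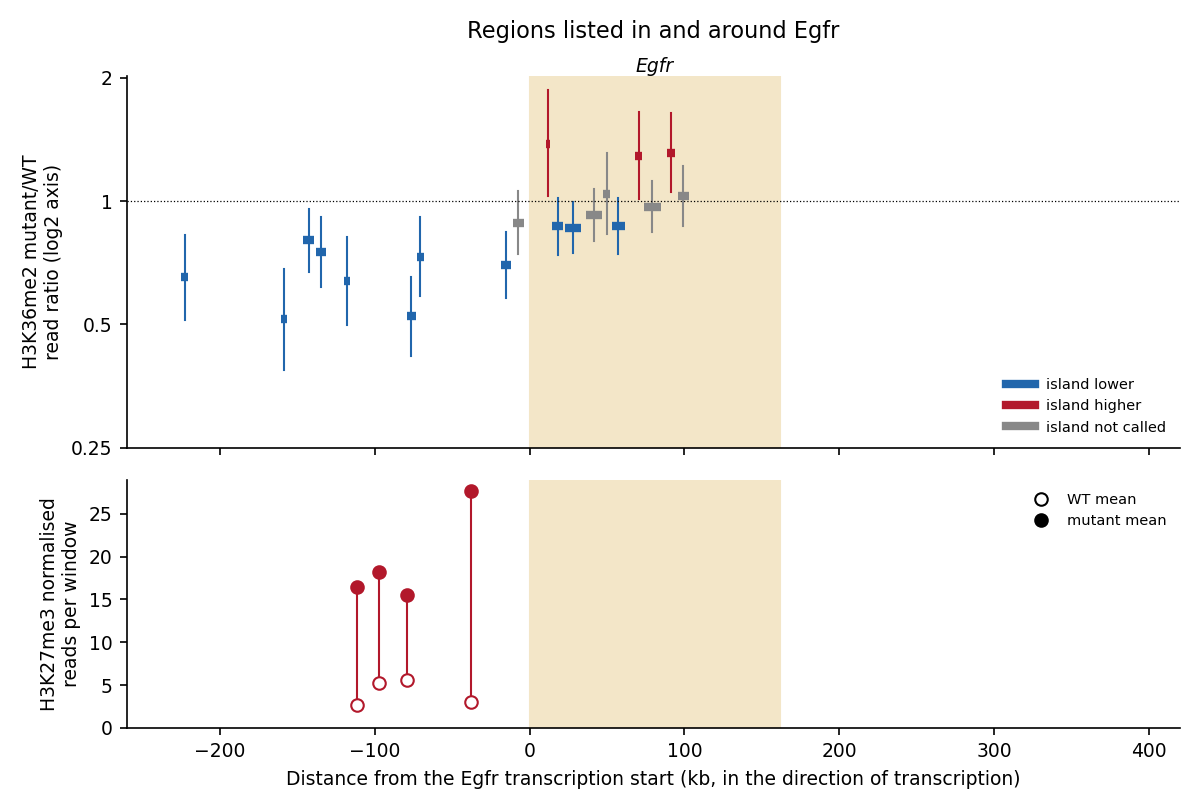
Top, H3K36me2 mutant to WT ratio of depth-scaled reads (log2 axis) for each island within 250 kb of Egfr, against distance from its start in kb; bar length is island width, vertical lines are exact binomial 95% intervals, and the shaded span is the gene body. Bottom, mean normalised H3K27me3 reads in WT (open) and mutant (filled) for each listed window: of the 11 lower islands 8 lie upstream and 3 inside the gene, all 3 higher islands lie inside it, and all 4 rising windows lie upstream.

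Erbb4, a receptor for neuregulins (chromosome 1, 68031884 to 69108576, minus strand), showed no H3K36me2 island over its 1.08 Mb and 1 falling H3K27me3 window just inside its 5' end. The window, from 69105059 to 69105459, was centred 2.8 kb downstream of the transcription start. Its mean fell from 104 to 39.7 normalised reads (log2 fold -1.30 at FDR 1.02e-08, per the authors' deposited table). In WT it had the highest H3K27me3 mean of the family's windows, against a median of 51.6 over all falling windows. Upstream of Erbb4, the 4 islands within 250 kb were all lower, with ratios from 0.544 to 0.753. Their summed level was 0.496 RPM per kb in the mutant and 0.752 in WT, a ratio of 0.66. Among all islands outside protein-coding bodies 72.6% were lower, with a median ratio of 0.737. A window 203 kb upstream rose from 3.83 to 14.3 normalised reads.

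Erbb2, the partner receptor without a ligand, and Erbb3, the neuregulin receptor with a weak kinase, had no listed region in their bodies or flanks. The nearest island to Erbb2 (chromosome 11, 98412484 to 98437716) lay 14.3 kb away in Pgap3, with 286 mutant and 210 WT reads and no call (FDR 0.355 in the authors' deposited table). Within 250 kb, 2 H3K27me3 windows fell and 1 rose, none closer than 91.7 kb. Erbb3 (chromosome 10, 128567523 to 128589635) had its nearest island 57.2 kb away at Ikzf4, which was lower with 107 mutant and 122 WT reads (FDR 1.74e-04 in the authors' deposited table). No H3K27me3 window was listed within 250 kb of it, and the nearest lay at 340 kb.

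Among the ligands, Ereg and Areg lie side by side on chromosome 5 and the islands around both were lower. Between the end of Ereg (91074617 to 91093649) and the start of Areg (91139599 to 91148432) there are 46.0 kb, which held 3 islands, all lower. The island closest to Ereg, from 91096001 to 91100000, began 2.35 kb past the gene. It had 79 mutant and 137 WT reads, a ratio of 0.459 (0.343 to 0.609), and FDR 5.43e-15 per the authors' deposited table. By deposited fold it was 33rd lowest of 13409 islands in the authors' deposited table, and it was also called by the exact binomial test (adjusted p = 4.50e-07), also after division by the median fold (adjusted p = 3.57e-04).

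The next islands towards Areg had 108 against 144 reads, a ratio of 0.597, and 121 against 179 reads, a ratio of 0.538. Over the 3 islands the level was 0.417 RPM per kb in the mutant and 0.783 in WT, a ratio of 0.533 (0.460 to 0.617). A further island 19.0 kb past Areg was lower as well, with 105 mutant and 149 WT reads. Neither gene body held an island, and the only other island within 250 kb, in Mthfd2l, was lower too (ratio 0.839). The ratios of the 3 islands between the genes and of the one past Areg lie below 0.709, the median deposited fold of lower islands in the authors' deposited table.

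An H3K27me3 window upstream of Areg, from 91136295 to 91136695, rose. It lay 2.9 kb before the Areg start and 36.3 kb from the lower island at Ereg. Its mean went from 4.18 to 14.5 normalised reads (log2 fold 1.20 at FDR 0.0168, per the authors' deposited table). The median rising window went from 3.88 to 14.9, so this window was ordinary among those that rose. At Cxcl2, a chemokine gene 235 kb from Areg, a window fell from 100 to 45.3 normalised reads.

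**Figure D2:**
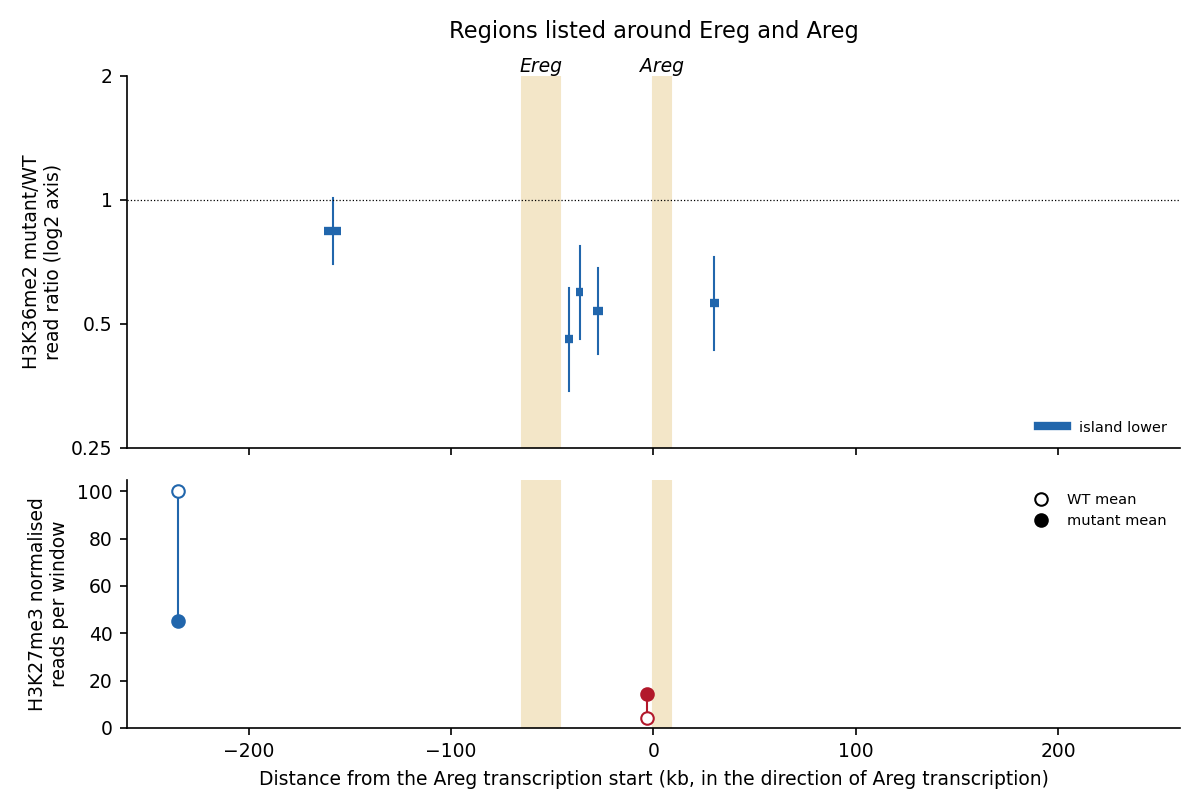
Islands and windows within 250 kb of Areg, drawn as H3K36me2 mutant to WT read ratio (top, log2 axis, exact binomial 95% intervals) and mean normalised H3K27me3 reads in WT and mutant (bottom), against distance from the Areg start in kb; shaded spans are Ereg and Areg. All 5 islands are lower (against 58.1% of all islands), 3 of them between the genes, and the window next to Areg rises.

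Nrg4, a short neuregulin that binds Erbb4 (chromosome 9, 55220222 to 55283654, minus strand), had 1 higher island and 1 rising window, both outside its body. The island, from 55212401 to 55216600, lay 3.62 kb past the 3' end of Nrg4 and inside the body of Fbxo22, a ubiquitin ligase subunit gene. It had 150 mutant and 68 WT reads, a ratio of 1.75 (1.31 to 2.37), and FDR 7.16e-09 per the authors' deposited table, and the exact binomial test called it too (adjusted p = 4.57e-04). It counts towards Nrg4 only through the 5 kb flank. The other 3 islands within 250 kb were lower, as were 58.1% of all islands. The rising window, from 55286279 to 55286679, lay 2.62 kb upstream of the gene. It went from 7.30 to 18.9 normalised reads (log2 fold 1.01 at FDR 0.0371, per the authors' deposited table).

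Nrg1, the neuregulin that activates Erbb3 and Erbb4 (chromosome 8, 31807452 to 32891609), held 3 of the listed H3K27me3 windows, all falling. Windows without a call at FDR under 0.05 are not listed, and 15.2% of 18072 tested windows fell. No island was found in the 1.08 Mb of Nrg1 or within 250 kb of it, and the nearest lay at 420 kb. The window from 32022218 to 32022618 went from 48.5 normalised reads in WT to 7.98 in the mutant (log2 fold -2.18 at FDR 6.61e-09, per the authors' deposited table). The window from 32089487 to 32089887 went from 86.4 to 18.6 (log2 fold -1.99 at FDR 5.11e-12, per the authors' deposited table). Between them, the window from 32055745 to 32056145 went from 15.4 to 3.32 (log2 fold -1.49 at FDR 0.00302, per the authors' deposited table).

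Ranked by deposited fold, the Nrg1 windows were 3rd, 13th and 299th among the 2742 falling windows, whose median log2 fold was -1.10 in the authors' deposited table. Mutant means were 0.164, 0.215 and 0.215 times the WT means. The windows span 67.7 kb, with gaps of 33.1 and 33.3 kb, and lie at least 215 kb from the low-coordinate end and 802 kb from the other end of the gene. None overlaps another annotated gene. At least 3 falling windows were found at 54 protein-coding genes (0.247%), of which 44 had no island.

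Nrg2, a neuregulin of the nervous system (chromosome 18, 36014581 to 36197532), had 1 falling window, from 36196385 to 36196785, inside the gene and 0.747 kb from its high-coordinate end. Its mean fell from 10.2 to 2.28 normalised reads (log2 fold -1.17 at FDR 0.0316, per the authors' deposited table). A second window, 81.5 kb outside the gene, fell from 64.2 to 28.8. The islands nearest to Nrg2 were 176 and 184 kb away, at Cxxc5 (higher) and Cystm1 (lower). Nrg3, which binds Erbb4 and is known mainly from the brain (chromosome 14, 38365102 to 39473235, minus strand), had no listed region of either mark in its 1.11 Mb or within 250 kb. Its nearest island lay at 1440 kb and its nearest window at 1540 kb.

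**Figure D3:**
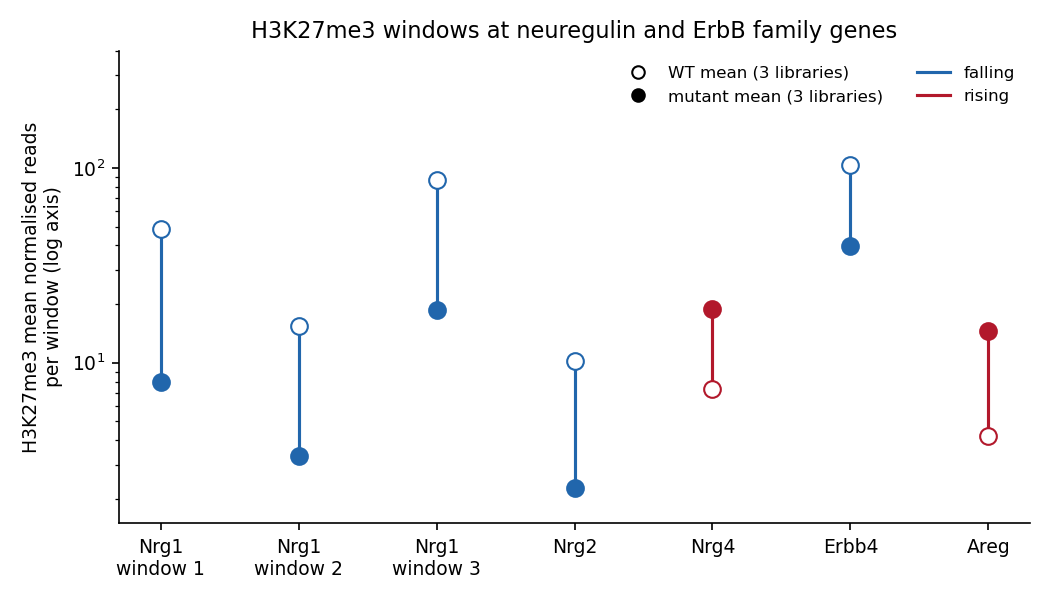
Mean normalised H3K27me3 reads per window of 401 bp (log axis) in WT (open) and mutant (filled) for the 7 windows at family genes, as group means, with Nrg1 windows in coordinate order. The 5 falling windows drop to 39.7 reads or fewer, and the 2 rising windows start at 7.30 or fewer.

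Over the family, 3 genes had a falling window and 2 a rising one, with no gene in both. Falling windows were found at 7.43% and rising ones at 2.64% of all protein-coding genes, and 15.2% of 18072 tested windows fell and 8.54% rose. All 5 falling windows lay inside gene bodies, 3 of them in Nrg1. The one in Erbb4 was centred 2.8 kb from the start, and the one in Nrg2 lay 0.747 kb from an end. Both rising windows lay outside bodies, upstream of the shorter genes Nrg4 and Areg. With flanks fixed at 5 kb, the body takes a larger part of the span searched at a longer gene. For H3K36me2, lower islands were found at 2 members (Egfr and Ereg) and higher ones at 2 (Egfr and Nrg4), against 12.2% and 7.19% of all genes. Of the 13 islands 4 were lower and 4 higher. Relative to the median ratio of all islands, a deposited fold of 0.814 in the authors' deposited table, 1 was lower and 6 higher by the exact binomial test. With 10 genes these shares describe the family and are no test of it.

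DiffBind, which compares the 3 animals of each genotype, called no H3K36me2 window anywhere (0% of 18072 tested), while 730 (4.04%) had a nominal p under 0.05. None of the latter lay at a member, and the nearest was 340 kb from Nrg2. The H3K36me2 differences above therefore rest on pooled reads. No H3K27me3 window of the family overlapped an island, as was so for all but 6.86% of the listed windows.

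**Figure D4:**
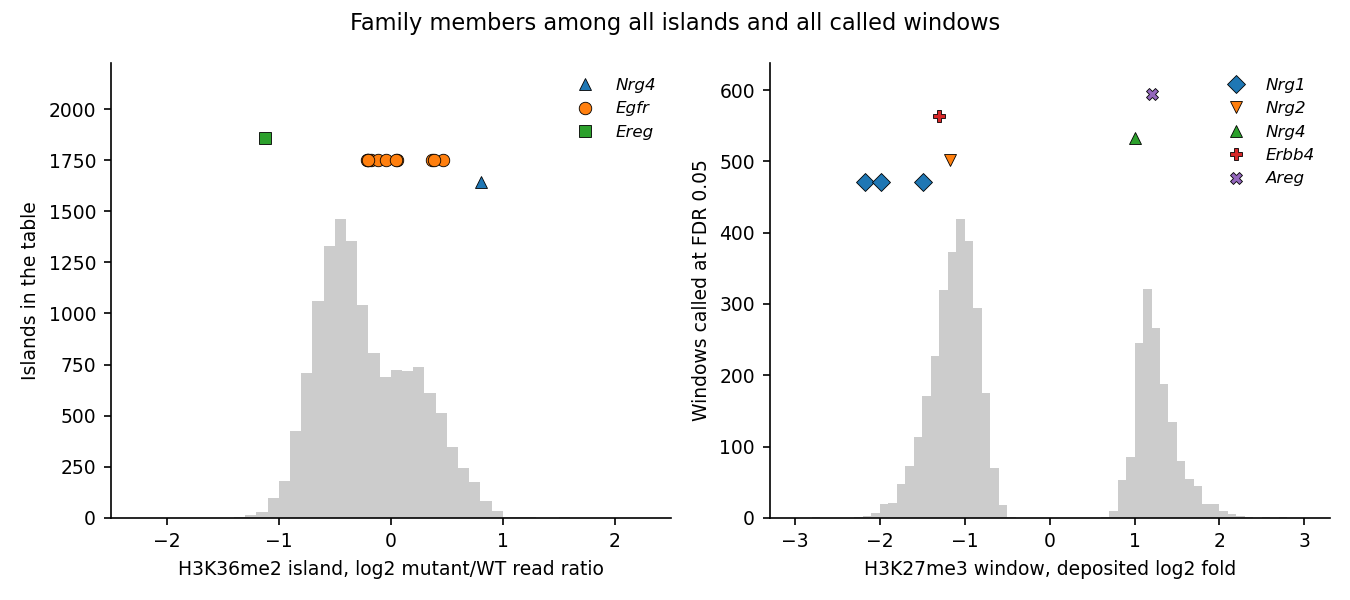
Left, log2 mutant to WT read ratio of all 13409 H3K36me2 islands (grey histogram) with the 13 islands of the family as symbols above. Right, deposited log2 fold of the 4285 H3K27me3 windows called at FDR 0.05 with the 7 family windows: Ereg and Nrg1 lie in the lower tails, Nrg4 in the upper island tail and Egfr around the middle.

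Nrg1, Nrg3 and Erbb4 are among 59 protein-coding genes of 1 Mb or more. Of these, 41 had no island, so their lack of islands is shared with most genes of that length. A falling window was found at 25 of the 59 and a rising one at 6. At least 3 falling windows, as at Nrg1, were found at 4 of them.

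The wider pathway was given by 78 genes in 4 groups. An island with or without a call was found at 32 of them, against 20.6% of all protein-coding genes. Lower islands were found at 15, higher ones at 14 and both at 5, falling windows at 5 and a rising one at 1. Over all protein-coding genes these shares were 12.2% lower, 7.19% higher, 2.22% both, 7.43% falling and 2.64% rising, and the counts of falling and rising windows are no higher than those shares. Of 5 further EGFR ligand genes, lower islands were found at 2 and higher ones at 0 (12.2% and 7.19% of all genes). Egf, the founding ligand, had 161 mutant and 202 WT reads, a ratio of 0.634 (0.512 to 0.784) and FDR 4.66e-09 per the authors' deposited table. Tgfa, the transforming growth factor alpha gene, had 2 lower islands with ratios of 0.881 and 0.810, whose intervals included 1. Hbegf had an island that was not called, and Btc and Epgn had none.

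Among 10 genes that release ligands from the membrane, lower islands were found at 3, higher ones at 2 and falling windows at 2 (12.2%, 7.19% and 7.43% of all genes). Adam10, a sheddase gene, had a ratio of 1.48 (1.18 to 1.87), and Nrd1, whose product nardilysin aids shedding, had 1.73 (1.29 to 2.32). Rhbdl2, a rhomboid protease gene, had 0.635 (0.528 to 0.761). Adam19, which can shed neuregulin, had both a lower island with a ratio of 0.670 and a window that fell from 82.9 to 51.2 normalised reads. Adam12 had a window that fell from 21.0 to 5.94.

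Among 27 adaptors and receptor regulators, lower islands were found at 6, higher ones at 8, both at 3 and falling windows at 2 (12.2%, 7.19%, 2.22% and 7.43% of all genes). Cblb, a ubiquitin ligase gene that removes activated receptors, had 161 mutant and 65 WT reads in 1 of its 5 higher islands, a ratio of 1.97 (1.47 to 2.67) and FDR 7.30e-13 per the authors' deposited table. Of the other Cblb islands 3 were not called and 1 was lower, with a ratio of 0.765 (0.618 to 0.946). Cbl, its paralogue, had a lower island with a ratio of 0.756 and one that was not called. Gab2, a docking protein gene, had 2 lower islands with ratios of 0.747 and 0.781. Lrig2, of a receptor-restraining family, had 1.61 (1.20 to 2.20). Shc3, an adaptor gene, had a window that fell from 127 to 59.9 normalised reads, and Spry4, a feedback inhibitor gene, one that fell from 41.0 to 23.3.

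Among 36 downstream genes, lower islands were found at 4, higher ones at 4 and both at 2, a falling window at 1 and a rising one at 1. The lower count is near the background share of 12.2%, and the others compare with 7.19%, 2.22%, 7.43% and 2.64% of all genes. Mtor, a growth kinase gene, had 2 higher islands with ratios of 1.39 and 1.34. Camk2d, a calcium-dependent kinase gene, had 3 lower ones with ratios from 0.603 to 0.707. Abl1, a tyrosine kinase gene, went both ways, with a higher island at 1.56 (1.10 to 2.23) and a lower one at 0.753 (0.573 to 0.990). Nck2, an adaptor gene, had the 1 rising window of the 78 genes, from 1.30 to 6.98.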

How the data were processed

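CUT&RUN libraries of mouse epidermis were read as pairs of 37 bp, per the labels. The submitters' processing notes name Bowtie2, the mouse build GRCm38 (mm10), DiffBind, DESeq2 and SICER. Their versions, the handling of duplicates, any spike-in and the caller of peaks were not given in the sources used here. Deposited by the authors were 3 tables with no column per library: log2 mean normalised reads and log2 folds for windows of 401 bp, and counts and RPM for islands in steps of 200 bp. At the family windows the log2 folds were smaller in size than the differences of the genotype means. Judged from the values, island folds are ratios with 1 read added. All p-values and FDRs come as deposited. SICER2 tests compare pooled reads, not animals. The IgG libraries were not analysed here.

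Depths were taken from count divided by RPM. Read ratios without the added read, exact (Clopper-Pearson) 95% intervals and a 2-sided exact binomial test, Benjamini-Hochberg adjusted over all islands and checked on simulated data, were computed with scipy 1.17.1. PCR copies are not independent molecules. Means were converted from log2. The number of windows tested, 18072, is the FDR over the p-value of the first row. Genes, strands and promoters came from RefSeq for GRCm38.p6: strand was known for Nrg3, Nrg4, Egfr, Erbb2, Erbb4 and Areg, and Nrg1, Nrg2, Erbb3 and Ereg were placed by coordinate. All 78 pathway genes matched, 1 by an older symbol. All members are named, and of the pathway up to 6 genes per table and direction by FDR; Tgfa, Hbegf, Btc and Epgn were added after values were seen. A pathway gene that this rule names is not reported here. Members and lists were chosen with earlier results of these data known.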

Additional observations from a re-analysis of the deposited data

How the results depend on the processing

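Of the 4 lower islands at family genes, 2 were called at FDR under 0.01, 1 (at Ereg) by the exact binomial test and 1 (again Ereg) relative to the median fold, and 8 lay within 50 kb flanks. The 4 higher islands numbered 3 to 6 under every alternative run, with 3 in gene bodies only and 3 by the exact binomial test. Relative to the median fold the lower Egfr islands reversed to 1.07, 1.06 and 1.07, with no call by the exact binomial test (adjusted p = 0.561, 0.565 and 0.523). An uncalled Egfr island reversed to 1.19 and another uncalled one went from 1.03 to 1.26. Both were then called higher by that test (adjusted p = 0.0377 and 0.0183). Dividing by the median of 0.814 removes any general decrease along with a scaling difference, so these cannot be told apart. The 5 falling windows numbered 4 or 5 under every alternative. The 2 rising windows numbered 0 at FDR under 0.01, since their FDRs are 0.0371 and 0.0168, and 0 in gene bodies only, since both are upstream. H3K36me2 windows at members stayed at 0 in each of the alternatives. Leaving out flank regions inside another gene, an alternative chosen after seeing the data, removed the Nrg4 island, which leaves 3 higher. Leaving out single animals was not possible, because the tables hold no value per library. No paired analysis was possible because no animal belongs to both genotypes and no column is one library. Depth limits single islands: the lower Egfr island at 18.1 kb had a ratio of 0.868 with an interval from 0.739 to 1.02.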
